A study of Mus musculus with 6 samples.

Results

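DNA methylation is written and erased by a small set of enzymes, and the promoter contacts of 8 genes that encode them or a direct cofactor were examined in mouse embryonic stem cells (mESCs). The genes were chosen by name: Dnmt1, Dnmt3a, Dnmt3b, Dnmt3l, Tet1, Tet2, Tet3 and Uhrf1. Of these, 7 were named at a captured promoter in the lists of interactions, among 21202 genes named in either HiCap list, and Tet3 was named in none. HiCap is Hi-C followed by hybridization to probes against promoter fragments, so that each listed interaction joins a promoter fragment to a distal region, usually a single fragment of the enzyme MboI, which cuts at GATC. The HiCap libraries were 2 biological replicates, and the Hi-C libraries, made with no capture of promoters, were 2 replicates pooled in 1 list. All libraries came from line R1, a single mESC line, grown in serum with leukemia inhibitory factor on gelatin and fixed with formaldehyde, and no genotype or treatment differed between them. Capture-C libraries of the same line were not analysed here.

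Dnmt1 is the maintenance methyltransferase, which copies methylation to the new strand after replication, and Uhrf1 binds hemimethylated DNA and brings Dnmt1 to it. Dnmt3a and Dnmt3b methylate CG sites that carried no methylation before, and Dnmt3l is a relative without catalytic activity that stimulates both of them. The Tet proteins oxidize 5-methylcytosine, the first step of active demethylation, and Tet1 and Tet2 are the members known for high expression in mESCs. The lists hold positions only, so the identity of the cells could not be checked against marker expression, and neither expression nor methylation was measured here.

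A called interaction was the same promoter fragment and the same distal region in both HiCap lists. All 7 named genes had at least 1 called interaction (exact binomial 95% interval 59.0-100%), where 60.7% of all listed genes had one. Replicate 1 listed 256 interactions for the 7 genes and replicate 2 listed 154. The overlap was 37 called interactions, which led to 36 distinct distal regions. When a distal region within 1 kb in replicate 2 sufficed, 114 of the replicate 1 interactions were called. The share over all genes under this wider rule is not given here, so the rise cannot be read as particular to these genes. The called share was 14.5% of the replicate 1 interactions (exact binomial 95% interval 10.4-19.4%) and 24.0% of those of replicate 2 (17.5-31.6%), against 19.0% and 17.1% over all genes. Such intervals account for counting error alone, and interactions from the same promoter fragment are not independent of each other. The lists give no read numbers, so the depth behind each interaction is unknown, and a region missing from a list was not necessarily without contact.

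The sequences printed below came from mm9, the build of the lists, and show CG sites, the substrate of these enzymes, in capitals. The first 4 are whole called distal regions on the plus strand, chosen because they are short enough to print whole and span rich and poor CG density and near and far contacts. They are the region 6.18 kb upstream of the captured Tet1 promoter (chr10:62348902-62349118), those 5.10 kb (chr2:153469953-153470133) and 3.88 kb (chr2:153471149-153471371) upstream of Dnmt3b, and that 118 kb downstream of Uhrf1 (chr17:56561875-56562016). The others are the 150 bases before a transcription start, on the strand of the gene, and show how the alternative starts of 1 gene differ. They are the RefSeq start of Tet1 inside a called distal region (chr10:62350073-62350222), the long (chr12:3806880-3807029) and short (chr12:3891578-3891727) isoform starts of Dnmt3a, and the main (chr9:20757318-20757467) and upstream RefSeq (chr9:20764333-20764482) starts of Dnmt1.
Tet1 distal region: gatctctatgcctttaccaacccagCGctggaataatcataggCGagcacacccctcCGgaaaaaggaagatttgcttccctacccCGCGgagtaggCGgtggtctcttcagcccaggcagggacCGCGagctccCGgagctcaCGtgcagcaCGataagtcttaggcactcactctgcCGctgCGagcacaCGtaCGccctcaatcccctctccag
Dnmt3b distal region at 5.10 kb: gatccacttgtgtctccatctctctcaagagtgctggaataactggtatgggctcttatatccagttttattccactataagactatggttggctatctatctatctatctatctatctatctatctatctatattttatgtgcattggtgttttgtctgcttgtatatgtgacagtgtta
Dnmt3b distal region at 3.88 kb: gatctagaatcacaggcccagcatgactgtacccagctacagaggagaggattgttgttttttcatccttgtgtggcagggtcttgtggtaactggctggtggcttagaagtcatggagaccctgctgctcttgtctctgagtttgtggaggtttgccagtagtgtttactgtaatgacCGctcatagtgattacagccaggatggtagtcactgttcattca
Uhrf1 distal region: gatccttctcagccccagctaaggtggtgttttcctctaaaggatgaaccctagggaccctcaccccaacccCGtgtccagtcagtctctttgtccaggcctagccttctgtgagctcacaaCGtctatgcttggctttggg
Tet1 RefSeq start: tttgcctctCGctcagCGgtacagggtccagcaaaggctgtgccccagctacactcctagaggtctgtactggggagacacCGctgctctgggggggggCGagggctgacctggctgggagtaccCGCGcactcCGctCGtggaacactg
Dnmt3a long isoform start: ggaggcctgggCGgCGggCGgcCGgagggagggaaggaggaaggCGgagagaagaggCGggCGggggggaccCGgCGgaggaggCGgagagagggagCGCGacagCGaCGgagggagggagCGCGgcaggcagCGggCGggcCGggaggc
Dnmt3a short isoform start: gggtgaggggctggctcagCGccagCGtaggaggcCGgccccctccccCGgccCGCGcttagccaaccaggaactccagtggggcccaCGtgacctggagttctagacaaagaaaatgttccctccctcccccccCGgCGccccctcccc
Dnmt1 main start: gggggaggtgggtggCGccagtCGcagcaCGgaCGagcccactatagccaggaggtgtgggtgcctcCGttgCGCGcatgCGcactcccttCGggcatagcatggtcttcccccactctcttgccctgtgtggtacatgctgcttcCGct
Dnmt1 upstream start: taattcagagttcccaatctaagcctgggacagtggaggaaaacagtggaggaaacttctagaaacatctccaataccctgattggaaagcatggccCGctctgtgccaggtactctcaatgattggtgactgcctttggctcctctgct

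The Tet1 region holds 15 CG sites in 217 bases, and the Dnmt3b region at 5.10 kb holds 0 in 181 bases and a run of tcta repeats. The long isoform start of Dnmt3a has 19 CG sites in its 150 bases and the short isoform start 9. The main start of Dnmt1 has 10 CG sites and the upstream start 1.

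The number of distal regions differed between the genes and between the replicates. Uhrf1 had the most, 97 in either list, with 80 in replicate 1, 27 in replicate 2 and 10 in both. Dnmt3a had 52 in replicate 1 and 9 in replicate 2, and Tet2 had 29 and 7. Dnmt3b and Dnmt3l leaned the other way, with 28 and 32 in replicate 1 and 48 and 49 in replicate 2. Dnmt1 had 17 and 5. Replicate 1 thus listed more regions for 4 genes and replicate 2 for 2 genes, and the order of the genes differed between the replicates. Tet1 had the fewest regions in each HiCap list, 4 in replicate 1 and 4 in replicate 2, and these were the same 4 regions.

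**Figure D1:**
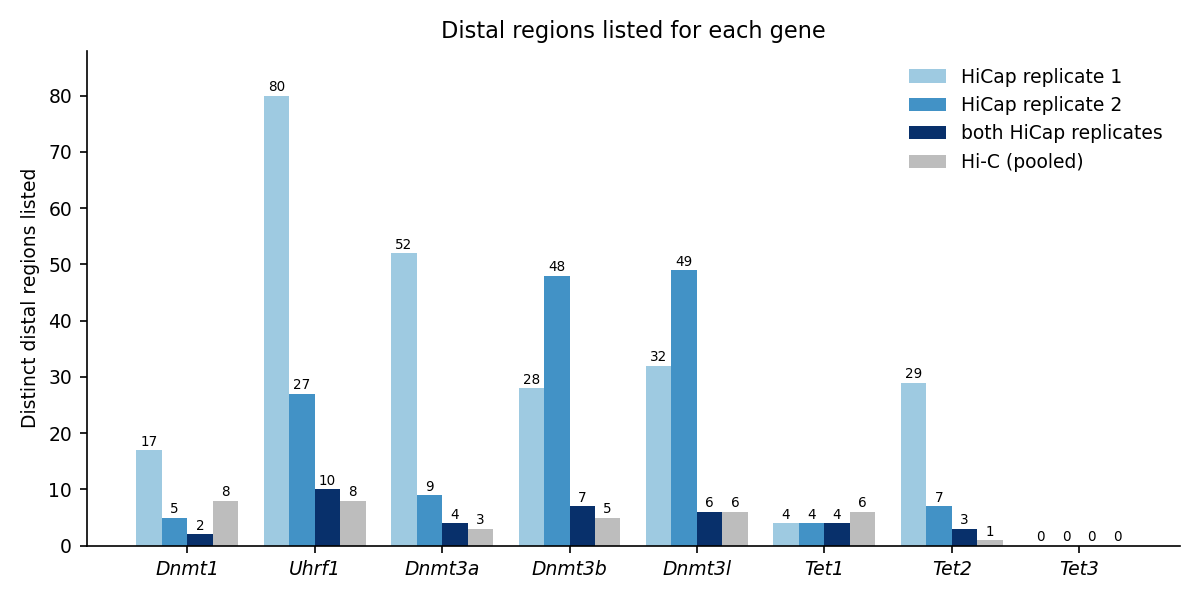
Number of distinct distal regions (vertical axis) listed for each of the 8 genes (horizontal axis) in HiCap replicate 1, HiCap replicate 2, both HiCap replicates and the pooled Hi-C list, with no error bars because each bar is a single count. Tet1 has 4 regions in each HiCap list and in both, Dnmt3a has 52 and 9, and Tet3 has none in any list.

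The median over the 7 genes was 4 called regions, from 2 for Dnmt1 to 10 for Uhrf1, against a median of 1 over all listed genes and 3 over the genes with a called interaction. Among all listed genes, 13.7% had as many called regions as Uhrf1 and 45.3% as many as Dnmt1. In replicate 1 the median was 29 regions over the 7 genes and 11 over all genes, while in replicate 2 it was 9 and 10. For these medians, all genes were the 21956 named in a HiCap or Hi-C list, and a gene missing from a list counted as having no region. The 7 genes had 14 captured promoter fragments in the HiCap lists, and 10 of them had a called interaction (71.4%, 41.9-91.6%), against 51.7% of all promoter fragments.

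The called distal regions lay a median of 8.83 kb from the promoter fragment, measured between midpoints, with a range of 2.26 to 118 kb, against a median of 10.3 kb over all called interactions. Of the 37 called interactions, 7 spanned 1-5 kb, 13 spanned 5-10 kb, 7 spanned 10-25 kb, 7 spanned 25-100 kb and 3 were longer. The share at 5-10 kb was 35.1%, against 24.7% over all genes. In the single lists the interactions of the 7 genes were longer, with a median of 19.2 kb in replicate 1 (all genes 19.8 kb) and 43.3 kb in replicate 2 (all genes 101 kb). The called share was lower for long interactions than at 5-10 kb. At 5-10 kb it was 24.5% of the replicate 1 interactions of the 7 genes (13.8-38.3%) and 68.4% of those of replicate 2 (43.4-87.4%), against 27.1% and 50.04% over all genes. Over 100 kb it was 6.98% (1.46-19.1%) and 5.17% (1.08-14.4%), against 7.36% and 2.16%. Replicate 2 placed 24 of its 154 interactions over 1 Mb away (15.6%, against 19.4% over all genes), where replicate 1 had 1 of 256. None of these was called. Of the 24, 12 belonged to Dnmt3l, 9 to Dnmt3b and 3 to Uhrf1.

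**Figure D2:**
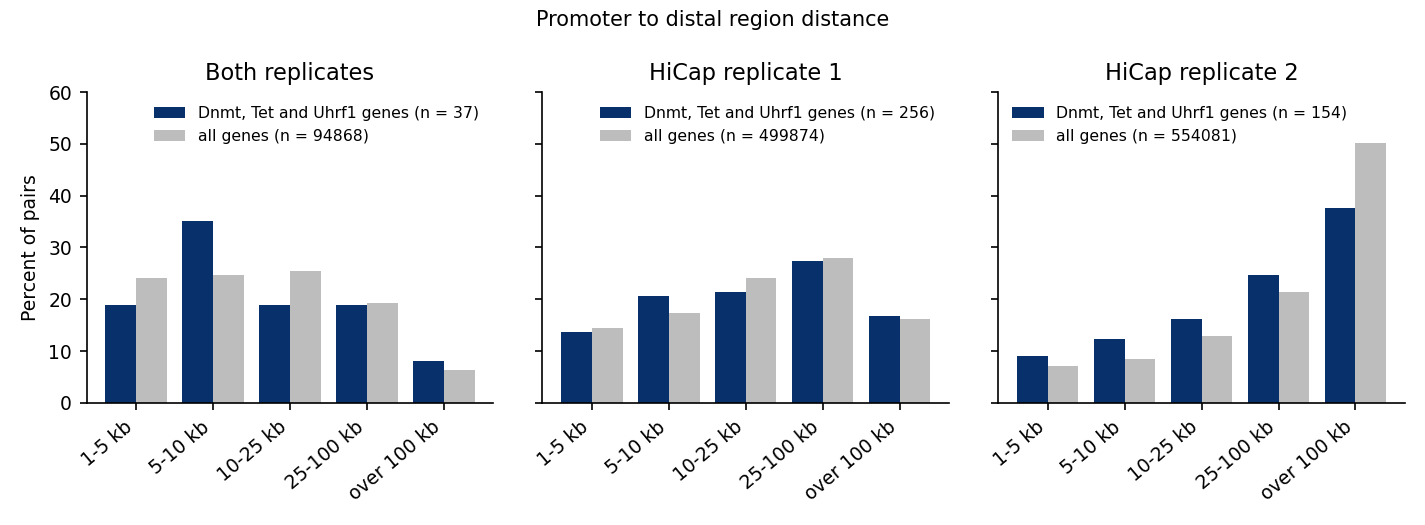
Percent of interactions (vertical axis) by distance between the midpoints of promoter fragment and distal region (horizontal axis, in 5 classes) for the Dnmt, Tet and Uhrf1 genes (dark bars) and for all genes (grey bars), among called interactions, those of HiCap replicate 1 and those of HiCap replicate 2. The called interactions of the 7 genes are most often at 5-10 kb (35.1%), and 37.7% of their replicate 2 interactions are over 100 kb, against 50.1% over all genes.

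Among the maintenance genes, Dnmt1 had 2 captured promoter fragments that differed in sequence and in contacts. The fragment with the annotated start (chr9:20756921-20757735) had 15 interactions in replicate 1, 5 in replicate 2 and 2 in both. The other fragment (chr9:20763363-20765126), with its midpoint 6.93 kb upstream of the annotated start, holds a RefSeq start, at 20764332, but no start of the GENCODE annotation. It had 4 interactions in replicate 1, none in replicate 2 and none called, but 6 of the 8 Dnmt1 interactions in Hi-C. Dnmt1 is known for a further start, upstream of the somatic one, that is used in oocytes. The main fragment had 62.7 CG sites per kb and the upstream fragment 10.2.

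Both called regions of Dnmt1 were far from its promoter and were shared with other genes. One lay 58.8 kb downstream in the gene Eif3g, a subunit of a translation initiation factor (chr9:20698119-20698935), and the other 38.1 kb upstream in an intergenic stretch beyond S1pr2, a sphingosine phosphate receptor (chr9:20795039-20795734). Both regions were also called for Angptl6, Mrpl4 and S1pr2. These 2 regions were 33.3% of the 6 called regions of Angptl6, 33.3% of the 6 of Mrpl4 and 10.5% of the 19 of S1pr2. Neither was in the Hi-C list for Dnmt1. The nearest called region of Dnmt1 was thus 38.1 kb from its promoter, whereas those of the other 6 genes lay between 2.26 and 5.47 kb. Nearer regions of the same Dnmt1 fragment stood in a single HiCap list and so were not called. Among them were regions at 4.19 kb in replicate 1, also in Hi-C, and at 3.35, 4.42 and 7.81 kb in replicate 2.

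Uhrf1 had 11 called interactions from 3 promoter fragments, 9 of them from the fragment with the starts of Uhrf1-003, Uhrf1-004 and Uhrf1-005 (chr17:56443197-56444233). The starts of Uhrf1-001 and Uhrf1-002, at 56442744 and 56442823, lay in no captured fragment. The main fragment had 78 interactions in replicate 1 and 25 in replicate 2. Of its called regions, 7 lay upstream at 7.05 to 34.0 kb and within the neighbouring genes Arrdc5 (3 regions), Plin3 (2) and Ticam1 (2), and no upstream region was intergenic. Plin3 encodes a lipid droplet protein and Ticam1 an adaptor of Toll-like receptors. Downstream, a region of 3509 bp at 3.92 kb lay within Uhrf1 itself, and the last lay 118 kb away in an intron of the phosphatase gene Ptprs. The remaining fragments, at the starts of the retained-intron transcripts Uhrf1-006 and Uhrf1-007, each had 1 called interaction, and both led to the same intergenic region (chr17:56547864-56548674), at 96.3 and 90.5 kb. That region was not called for the main fragment, and it was also called for 6 other genes, Ptprs among them.

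Of the 10 Uhrf1 regions, 5 were also called for another gene, most often for Plin3 (3 regions, 42.9% of the 7 regions of Plin3). Next came 4 genes with 2 regions each, Arrdc5 (50% of its 4), Ticam1 (40% of its 5), Plin5 (28.6% of its 7) and Fem1a (25% of its 8). The 2 regions within Ticam1 were each called for 5 other genes. Of the 3 regions within Arrdc5, 1 was also called for Plin3. Of the called interactions of the main fragment, those also in Hi-C were the nearest on each side, at 7.05 kb upstream and 3.92 kb downstream. Hi-C also listed the region called at 34.0 kb upstream, but from the fragment of Uhrf1-007, at 48.0 kb.

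Among the genes of de novo methylation, Dnmt3a gave its called interactions at its internal start. The fragment there (chr12:3890921-3892087) lies 85.5 kb inside the gene at the start of Dnmt3a-005, where the short isoform Dnmt3a2, known as the prevailing form in mESCs, begins. It had 48 interactions in replicate 1, 9 in replicate 2 and 4 in both. The fragment at the start of the long isoform (chr12:3806671-3807729) had 4, none and none. Their sequences also differed, with 60.3% G+C and 48.0 CG sites per kb in the internal fragment and 82.6% and 164 in that of the long isoform, which was the fragment with the highest G+C of the 15 named in any list. The part of G+C in the difference in contacts was not tested.

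All 4 called regions of Dnmt3a lay within Dnmt3a, 3 of them upstream of the internal start at 4.68, 10.1 and 21.2 kb and 1 downstream at 6.13 kb (chr12:3897425-3897846), which overlaps an exon. The farthest of them (chr12:3869689-3870950) was also in the Hi-C list. None was called for another gene, and none reached the long isoform start.

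Dnmt3b had 7 called interactions, all from the fragment with its main starts (chr2:153474906-153475378), which had 26 interactions in replicate 1 and 48 in replicate 2. Of the 7 regions, 6 were intergenic and lay immediately upstream, at 2.26, 3.27, 3.88, 5.10, 7.21 and 9.10 kb, so that they formed a row between Dnmt3b and its neighbour Commd7. The region at 7.21 kb (chr2:153467395-153468474) was also in the Hi-C list and was called for Commd7 as well. The other 5 were called for Dnmt3b alone. The last region lay 102 kb downstream within Mapre1 (chr2:153576418-153577282), which encodes a microtubule end-binding protein. The 2 internal fragments, at the starts of retained-intron transcripts, had 1 and 2 interactions in replicate 1, none in replicate 2 and none called. The farther of them had 2 interactions in Hi-C.

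The 6 regions upstream of Dnmt3b had between 0 and 14.3 CG sites per kb, on both sides of the median of 9.90 over all called regions, and the promoter fragment that they contact had 114 and a G+C content of 74.8%. The region at 2.26 kb, with 14.3 per kb, was at or above 71.6% of all called regions, and those at 3.27, 7.21 and 9.10 kb had 7.41 to 7.74 per kb. The shortest ones, at 5.10 and 3.88 kb and printed above, held 0 and 1 CG sites. Regions without a CG site made up 5.62% of all called regions.

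Dnmt3l had 6 called interactions from 2 fragments. The fragment at chr10:77512233-77512954, with the starts of Dnmt3l-002 and Dnmt3l-003, had 26 interactions in replicate 1, 40 in replicate 2 and 4 in both, and none in Hi-C. Its regions lay 15.1 kb upstream in an exon of Aire, a regulator of tolerance in the thymus, 3.04 kb downstream in Dnmt3l, and 60.9 and 110.2 kb downstream in intergenic stretches. The fragment at chr10:77517420-77517601 is 181 bp long, lies at the start of the retained-intron transcript Dnmt3l-008 and had 9 interactions in replicate 1, 11 in replicate 2 and 2 in both. These 2 regions adjoin each other within Dnmt3l, at 6.73 and 7.41 kb downstream, and both were in the Hi-C list. In the combined list of the authors both stood under the neighbouring fragment chr10:77517646-77518098, which was named in neither HiCap replicate list and not in Hi-C. None of the 6 called regions was called for another gene. The start of the transcript Dnmt3l-001, at 77505032, lay in no captured fragment, and that of Dnmt3l-007 lay in a fragment named for Aire.

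Among the Tet genes, Tet1 had 1 captured fragment (chr10:62342511-62343142), at the start of 2 coding transcripts. All 4 of its regions in replicate 1 were in replicate 2 and the reverse, so the called share was 100% in both lists. Among the other 6 genes it was between 7.69% (Dnmt3a) and 25% (Dnmt3b) in replicate 1 and between 12.2% (Dnmt3l) and 44.4% (Dnmt3a) in replicate 2. These shares of Tet1 rest on only 4 regions. The regions lay 14.9 kb downstream (chr10:62327715-62328171), and 5.47 (chr10:62347695-62348901), 6.18 and 7.35 kb (chr10:62349773-62350574) upstream, all within the annotated extent of Tet1, whose first annotated start, at 62361866, lay in no captured fragment. The regions at 5.47 and 6.18 kb adjoin each other and were both in the Hi-C list.

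The captured fragment of Tet1 was not the start that RefSeq gives. When the promoter sequences of RefSeq were placed on mm9 by exact match, the Tet1 start fell at 62350072, inside the called distal region at 7.35 kb, and in no captured fragment named in the lists. This was noticed after the regions were known. Of 61630 called interactions of genes with a placed start, 76 (0.123%) had a distal region that holds a RefSeq start of the same gene. Among the 37 of the 7 genes, the Tet1 interaction at 7.35 kb was the only one. Dnmt3l and Uhrf1 also had a RefSeq start in no captured fragment, and neither start lay in a called region. In the GENCODE annotation, the start of the processed transcript Tet1-002, at 62328052, lay in the called Tet1 region 14.9 kb downstream. That start was also noticed with the regions known, and GENCODE starts in distal regions were not counted over all genes. Probes targeted annotated starts, and a start inside a captured fragment could hardly fall in a distal region. The low share thus follows in part from the design and does not measure how unusual Tet1 is. The 3 upstream regions were also rich in CG sites, with 25.7, 69.1 and 47.4 per kb from the nearest to the farthest, against 31.7 in the captured fragment and a median of 9.90 over all called regions. Only 0.417% of all called regions had as many CG sites per kb as the region at 6.18 kb, and 1.36% as many as that with the RefSeq start.

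The Tet1 region at 5.47 kb was also called for 4 other genes, among them Atoh7, a transcription factor of the retina, and Ccar1, a coactivator. It was the only called region of each of these 4 genes. The region with the RefSeq start was also called for AC113107.5, again as the only called region of that gene. Hi-C listed 4 more regions for Tet1, at 4.18, 4.56, 11.5 and 28.3 kb, and none of them was in either HiCap list.

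Tet2 had 1 captured fragment, at its first annotated start (chr3:133206752-133208354), with 29 interactions in replicate 1, 7 in replicate 2 and 3 in both. The called regions lay 2.99 and 19.1 kb downstream within Tet2 and 7.44 kb upstream in an intergenic stretch. None of them was called for another gene or was in Hi-C, where Tet2 had 1 interaction, at 6.89 kb, which replicate 1 also listed. The region at 2.99 kb was 1625 bp long and held 2 CG sites, or 1.23 per kb, next to a promoter fragment with 83.0 per kb.

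**Figure D3:**
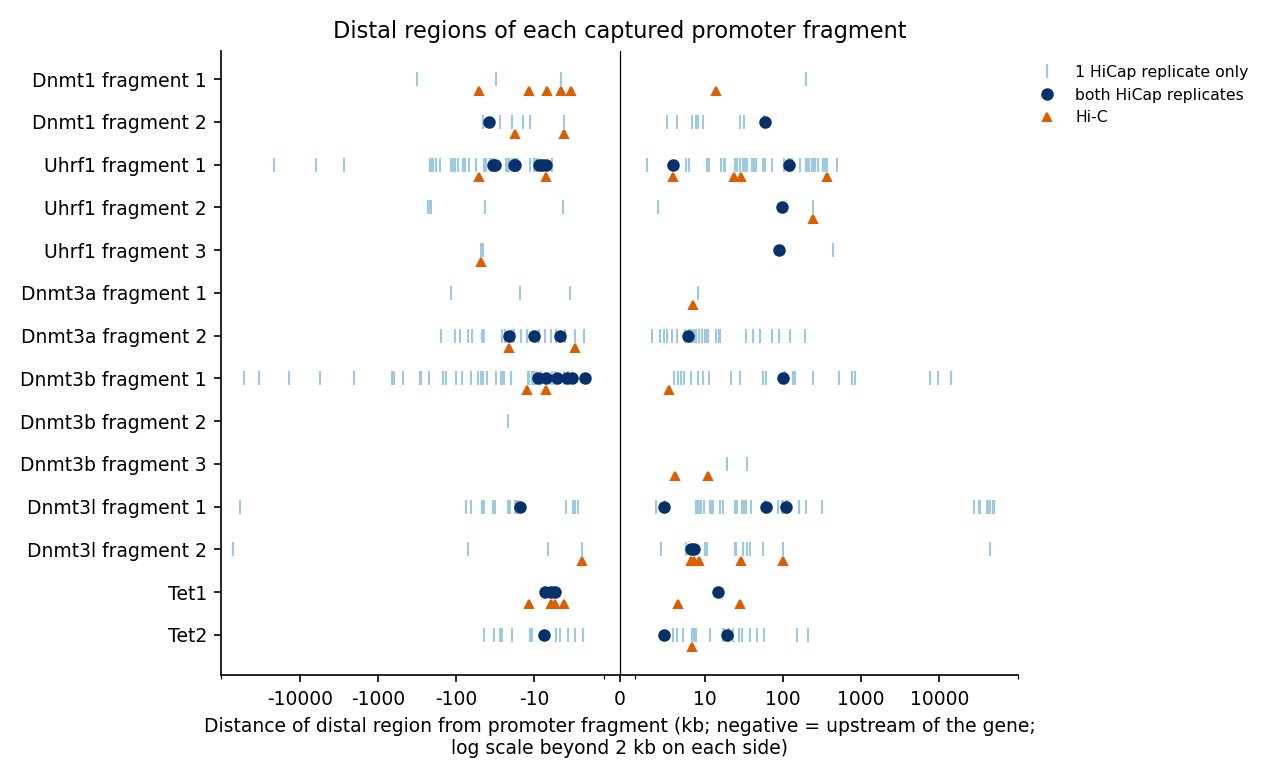
Distance of each distal region from the midpoint of its promoter fragment (horizontal axis, kb, log scale beyond 2 kb, negative values upstream of the gene) for the 14 promoter fragments of the 7 genes, numbered in the direction of transcription, with regions of 1 HiCap replicate (light ticks), both HiCap replicates (dark circles) and Hi-C (triangles). The circles of Dnmt3b stand in a row upstream between 2.26 and 9.10 kb, those of Tet1 are the only HiCap regions of that gene, and the ticks over 1 Mb are without circles.

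Tet3 was named for no promoter fragment, although a captured fragment lies at its start. The starts of Tet3-001 and Tet3-002, at 83391669 and 83391672, fall within the fragment chr6:83391481-83391806, which the lists name for B230319C09Rik. This fragment was chosen after its values were seen, and its interactions are not counted among those of the 8 genes. It had 27 interactions in replicate 1, 19 in replicate 2, 4 in both and 2 in Hi-C. Of the called regions, 2 lay within Tet3, at 3.80 and 76.6 kb, and the other 2 lay on the far side in intergenic stretches at 11.6 and 14.8 kb, the nearer of which was in the Hi-C list. The contacts of B230319C09Rik and Tet3 cannot be told apart at this fragment.

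By position, 22 of the 37 called interactions of the 7 genes reached upstream (59.5%, against 47.8% over all genes with an annotated strand). Most of the upstream ones came from the main fragments of Dnmt3b and Uhrf1, so they are not independent of each other. Of the 36 regions, 10 overlapped an exon, 15 lay in an intron and 11 were intergenic. In 14 interactions the region was within the gene of the promoter, and in 11 it was within another gene only. In 16 of 37 a captured promoter of another gene lay between promoter and region, and in 19 the nearest captured promoter was one of the same gene. Of the 36 regions, 10 were also called for another gene (27.8%, 14.2-45.2%, against 13.9% over all called regions). The share over all called regions counts each region once. A region called for several genes is more likely to be reached from any chosen genes, so the shares are not like for like. An excess of sharing was not tested. These 10 belonged to Uhrf1 (5), Dnmt1 (2), Tet1 (2) and Dnmt3b (1), whereas Dnmt3a, Dnmt3l and Tet2 shared none.

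Hi-C listed 37 interactions for the 7 genes, from 1 for Tet2 to 8 for Dnmt1 and Uhrf1. Of the called HiCap interactions, 8 of 37 were also in Hi-C (21.6%, 9.83-38.2%), against 12.5% over all genes. The shares were lower among interactions of a single replicate, 6 of 219 (2.74%) in replicate 1 alone and 1 of 117 (0.855%) in replicate 2 alone, against 3.17% and 1.05% over all genes. The lists of replicates 1 and 2 also had longer medians, 19.2 and 43.3 kb, than the called interactions, at 8.83 kb. The shares of a single replicate were not split by distance, so the part of distance in this contrast was not tested. All 8 called interactions in Hi-C spanned under 25 kb. In that range 8 of 27 called interactions were in Hi-C (29.6%, 13.8-50.2%, against 15.3% over all genes). At 25 kb or more it was 0 of 10, which allows up to 30.8%, against 4.27% over all genes. At 5-10 kb, 6 of 13 were in Hi-C (46.2%, 19.2-74.9%, against 15.8%). The share was 1 of 7 at 1-5 kb (14.3%, against 20.7%) and 1 of 7 at 10-25 kb (14.3%, against 9.61%). The 6 at 5-10 kb belonged to Tet1 (2), Dnmt3l (2), Dnmt3b (1) and Uhrf1 (1). The 2 regions of Tet1 adjoin each other, as do the 2 of Dnmt3l, so these 6 are not independent. In the other direction, 15 of the 37 Hi-C interactions were in at least 1 HiCap list (40.5%, 24.8-57.9%, against 39.4% over all genes) and 22 were in neither.

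The called distal regions of the 7 genes had a median G+C content of 49.6%, against 46.5% over all called regions, and 12.8 CG sites per kb against 9.90. The interquartile ranges overlapped, from 7.71 to 16.8 CG sites per kb for the 7 genes and from 5.85 to 15.3 over all. The 2 regions richest in CG sites were the Tet1 region at 6.18 kb and the Dnmt3l region in an exon of Aire (chr10:77497291-77497654), with 69.1 and 65.9 per kb. Median CG density at the called promoter fragments was 39.9 sites per kb for the 7 genes and 33.2 over all. For Dnmt1, Uhrf1, Dnmt3a, Dnmt3b and Tet2, the promoter fragment with the most called interactions had more CG sites per kb than every called region of the gene, whereas for Tet1 and Dnmt3l some regions had more.

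**Figure D4:**
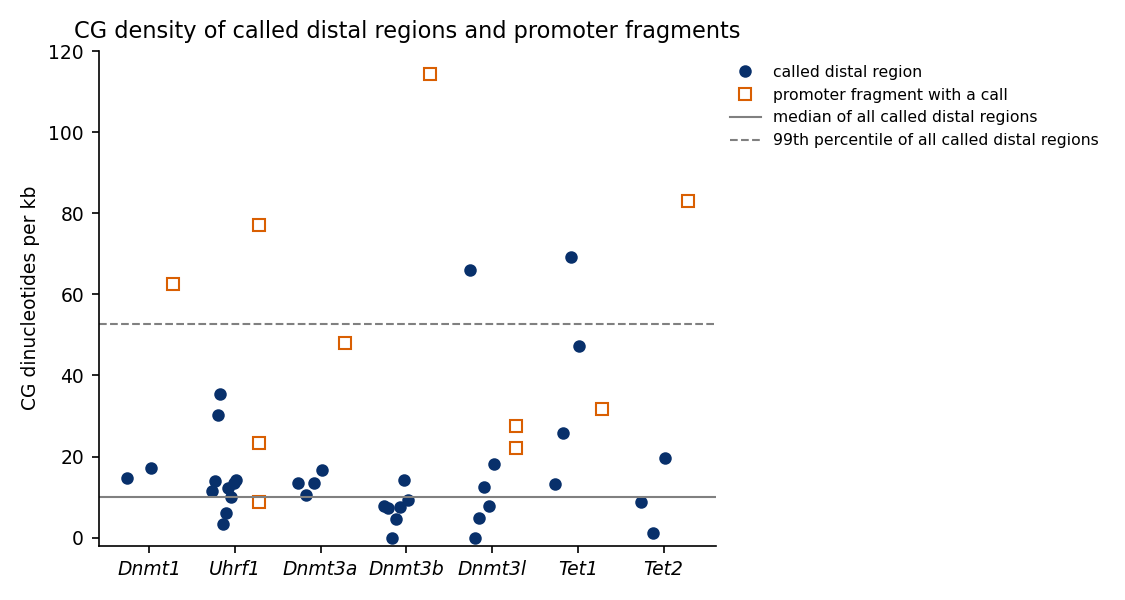
CG sites per kb (vertical axis) of each called distal region (filled circles) and of each promoter fragment with a call (open squares) for the 7 genes (horizontal axis), with the median (solid line) and 99th percentile (dashed line) of all called distal regions. The Tet1 region at 69.1 and the Dnmt3l region at 65.9 per kb stand above the dashed line, and all regions of Dnmt3b lie below 15 per kb.

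Motifs of factors of mESCs and of chromosome folding were searched on both strands in 300 bases centred on each called region, a window that reaches beyond regions shorter than that. The octamer ATGCAAAT, bound by Oct4, was in 0 of 36 windows (1.41% over all called regions), and TCAAGGTCA, the motif of Esrrb, also in 0 of 36 (1.05%). The Klf motif GGGTGTGG was in 1 of 36 (2.78%, against 3.01%), the Tet2 region upstream. AGGNGGC, a part of the CTCF motif, was in 7 of 36 (19.4%, against 17.9%), with 2 windows each for Tet1 and Uhrf1 and 1 each for Dnmt3a, Dnmt3b and Dnmt3l. No motif contains another, and a match describes the letters of the window only.

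Other genes of the pathway were taken as a list of 34, of which 32 were named in the HiCap lists and 23 of these had a called interaction (71.9%, against 60.7% over all genes), with a median of 5 called regions. Tdg, the glycosylase that removes oxidized methylcytosine, and Gadd45a were not named. Among readers of methylated DNA 7 of 9 had a call, with a median of 1 region and at most 7. Among the genes of base removal it was 5 of 8, with Lig3, a DNA ligase, at 42 regions, the most of the list, and Neil2, a glycosylase, at 20. Among deaminases and Gadd45 genes it was 3 of 4, and among cofactors and genes of methyl donor supply 8 of 11, with Usp7, a deubiquitinase that binds Dnmt1 and Uhrf1, at 24 and Zfp57, which protects methylation at imprinted genes, at 22. Zfp57 had 7 called interactions that were also in the Hi-C list, and Lig3 had 3. The 9 named genes without a call included the readers Mbd1 and Zbtb33 and the repair genes Smug1, Neil3 and Xrcc1. Mbd1 and Zbtb33 had no interaction in replicate 1 and 7 and 5 in replicate 2.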

How the data were processed

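The authors aligned each end of the HiCap read pairs on its own to mm9, kept uniquely placed reads, dropped duplicates and pairs spanning less than 1 kb, assigned ends to MboI fragments and required at least 3 read pairs. The alignment and read minimum of the Hi-C list are not given in the sources used here. The deposited values are positions, with no score and no normalization, in 4 lists: HiCap replicates 1 and 2, the combined calls and pooled Hi-C. Hence no count of reads was available. Repeated lines were removed. Distances were taken between fragment midpoints. Starts of distal regions are given 1-based and promoter fragments as listed. Region starts lay at an MboI site for 100% of 71923 called regions. Annotation was GENCODE vM1 of the same build, without pseudogenes. RefSeq promoter sequences (from the GRCm38 build) were placed on mm9 by exact match, and 98.8% of 32851 were found. Intervals are exact binomial (Clopper-Pearson, 95%). Software was Python 3.11.15 with pandas 2.3.3, numpy 2.4.6, scipy 1.17.1 and matplotlib 3.10.9, tested on simulated lists with planted shared pairs. The 8 genes, the pathway list and the comparisons were chosen with earlier results of these data known. Genes named are the 8, pathway genes with the most calls (up to 4) or none (up to 5), up to 3 genes sharing most regions with each member, and genes in which regions lie. The Tet3 start fragment, the RefSeq starts, the tied gene Plin5 and 1 alternative were added after values were seen. Alternatives were each replicate alone, regions within 1 kb, any promoter fragment, the combined list, pairs over 15 kb, merged regions and distances between edges.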

Additional observations from a re-analysis of the deposited data

How the results depend on the processing

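No paired analysis was possible because the Hi-C list pools its replicates and no test compared groups. Leaving out a replicate, regions within 1 kb and any promoter fragment only widen the rule, and merging cannot empty a gene, so under these no gene could lose its call. The combined list comes from the same 2 HiCap replicates and holds 35 of the 37 called interactions at the same promoter fragment. It is therefore no independent check, and in it all 7 genes had an interaction. With interactions over 15 kb alone 6 genes had one and Tet1 had none. The number of called interactions depended on the rule. It was 37, but 154 to 256 with 1 replicate left out, 114 replicate 1 interactions when a region within 1 kb in replicate 2 sufficed, and 15 over 15 kb. It stayed within 1.5 times with any promoter fragment (47 replicate 1 interactions, some of them to the same region), the combined list (37) and merged regions (33). With any promoter fragment Dnmt3l alone moved beyond 1.5 times, from 6 to 11. Of the single genes, 6 moved beyond 1.5 times with regions within 1 kb, from 5 for Dnmt1 to 33 for Uhrf1. Tet1 kept 4, which could not rise because all 4 of its replicate 1 interactions were already called. The share of called interactions in Hi-C was 21.6%, but 5.47 to 5.84% with 1 replicate left out and 6.67% over 15 kb, and it was 37.8% when a Hi-C region of the same gene within 1 kb sufficed. The median distance of 8.83 kb became 19.2 to 43.3 kb with 1 replicate left out, and it was 8.02 kb between fragment edges. The regions shared with another gene numbered 10, but 16 within 1 kb, and 50 to 93 with 1 replicate left out, which was chosen after seeing the data. The larger numbers follow from the wider rules. Values over all genes under these alternatives are not given here, so none of the changes can be read as particular to the 7 genes. The lists give no read numbers, so the effect of depth on these values was not tested.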
